A study of Mus musculus with 20 samples.

Results

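Proneural factors are basic helix-loop-helix (bHLH) transcription factors that commit neural progenitors to becoming neurons. They bind DNA as dimers with E proteins, at sites called E-boxes, and they switch on the Notch ligands through which a committed cell holds back its neighbors. The 9 genes described here are Neurog1, Neurog2 and Atoh1, which start the program; Neurod1, Neurod4, Nhlh1 and Nhlh2, bHLH genes expressed as cells leave the cell cycle and become neurons; Insm1, a zinc finger factor of newly committed neuronal and endocrine cells; and Hes6, a relative of the Hes repressors that promotes neurogenesis and is also expressed in progenitors. They were chosen by gene symbol, and all 9 were found among the 37561 genes shared by the deposited tables.

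RNA was sequenced from D3 mouse embryonic stem cells (ESD3) of strain 129s2/SvPas, kept on fibroblast feeders from mouse embryos and taken through spherical neural masses (SNMs) to dopaminergic neurons. Control cells had been infected with virus carrying an shRNA against luciferase, and HPRT knockdown cells with virus carrying an shRNA against HPRT, the purine salvage enzyme whose loss causes Lesch Nyhan disease. Days count the differentiation of SNMs to neurons, so day 0 is already the SNM stage and not that of undifferentiated stem cells. Cells were collected daily from day 0 to day 4 and every other day from then to day 14. Each line had 1 library per collection, 10 per line and 20 in all, each made from the pooled RNA of several cultures. No replicate within a day and no second line of either kind was analysed here, so errors below are standard deviations over days, and what differs between the lines for any reason other than the hairpin cannot be told apart from the knockdown.

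Reads per gene were worked back from the deposited log2 values and are given as normalized reads, that is, reads divided by the size factor of the library, which ranged from 0.782 to 1.52. Ratios are log2 values, HPRT knockdown minus control, as deposited for that day. A library with less than 1 normalized read had been entered by the authors as 1, a floor that draws the ratios of the lowest genes toward 0. Hprt was lower in the knockdown library on all 10 days, at 20.9 to 143 normalized reads against 543 to 924 in the control, with a mean ratio of -4.002 ± 0.89 (SD, n = 9 days; exact sign-flip permutation test, two-sided, p = 0.00390625, the smallest that 9 days allow). Day 6 was left out of the tests because the study had set it aside as discrepant, and its ratios are given apart. Ranges of levels and of summed marker levels take in day 6. In bulk RNA, fewer cells of a type and less RNA per cell cannot be told apart.

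The upstream sequences of Nhlh1, Nhlh2 and Hes6 are shown because these 3 genes mark both ends of what follows, the first pair among the most reduced genes and Hes6 the least reduced of the 9, and because they were the members whose windows held one of the 2 E-boxes marked below; they were chosen after these matches were seen. The windows are the 250 bases before the RefSeq start (build GRCm38.p6, gene strand, 5′ to 3′), with matches to the E-box CAGCTG in capitals, and likewise matches to CAGATG (on the other strand, CATCTG). Nhlh1 lies at chr1:172057597-172057846 on the minus strand, Nhlh2 at chr3:102009895-102010144 on the plus strand and Hes6, at the first of its 2 listed starts, at chr1:91414039-91414288 on the minus strand.
Nhlh1: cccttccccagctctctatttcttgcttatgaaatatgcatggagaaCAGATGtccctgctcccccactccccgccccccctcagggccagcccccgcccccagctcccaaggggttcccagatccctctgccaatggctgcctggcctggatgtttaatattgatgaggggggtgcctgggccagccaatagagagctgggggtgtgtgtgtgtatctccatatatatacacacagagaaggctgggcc
Nhlh2: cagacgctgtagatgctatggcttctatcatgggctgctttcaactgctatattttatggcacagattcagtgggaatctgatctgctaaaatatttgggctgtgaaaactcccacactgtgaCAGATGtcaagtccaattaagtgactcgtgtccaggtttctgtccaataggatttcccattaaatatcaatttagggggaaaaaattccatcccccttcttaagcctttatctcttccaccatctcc
Hes6: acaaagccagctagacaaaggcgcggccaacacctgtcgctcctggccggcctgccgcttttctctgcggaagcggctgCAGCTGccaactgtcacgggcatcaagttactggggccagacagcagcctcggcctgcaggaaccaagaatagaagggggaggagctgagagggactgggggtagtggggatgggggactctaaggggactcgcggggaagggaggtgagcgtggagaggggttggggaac

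The match in Nhlh1 begins 203 bases before the start, that in Nhlh2 127 bases and that in Hes6 171 bases before it. In all, 5 motifs were searched on both strands in the 8 members with an entry in the promoter table and in all 32536 windows of the same length. CAGATG was held by 2 members and by 14.4% of all windows, and CAGCTG by 1 member and by 13.1%. CACGAG was held by 1 member, Nhlh2, and by 5.39% of all windows, and CACGTG by 0 members and by 6.04%. The general form CANNTG, which takes in all of these but CACGAG, was held by 4 members, the 3 shown and Neurod1, and by 66.2% of all windows. The windows of Neurog1, Neurog2, Neurod4 and Atoh1 held none of the 5, and Insm1 was matched to no entry. A match is a match of letters and no site.

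Per kilobase of annotated exon, the control medians fell in the order Hes6 (506 normalized reads per kb), Nhlh2 (220), Insm1 (138), Nhlh1 (93.1), Neurog2 (53.5), Neurog1 (52.1), Neurod4 (49.4), Neurod1 (30.2) and Atoh1 (2.72). Atoh1, with a median of 5.69 normalized reads in the control, stood below the filter on level that was applied to all genes (4 or more for the typical log2 of its normalized count), so 8 of the 9 members entered the tests over all 13608 genes that passed it.

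The first comparison asked which of the factors differed between the lines over the whole course. Of the 8 members tested, 7 were lower in the knockdown, by limma (9 daily ratios, p-values adjusted over all genes tested by Benjamini-Hochberg), and none was higher. The lines differed widely: 26.3% of all genes tested were called lower, 26.2% higher and 52.5% in either direction. The mean ratio was at or under -1, a 2-fold difference, for 7 of the 8 members and for 6.13% of all genes tested, and at or under -3, an 8-fold difference, for 4 of the 8 and for 0.691%. Over all genes the median ratio was 0.0056 and over the 8 members -2.31.

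**Figure D1:**
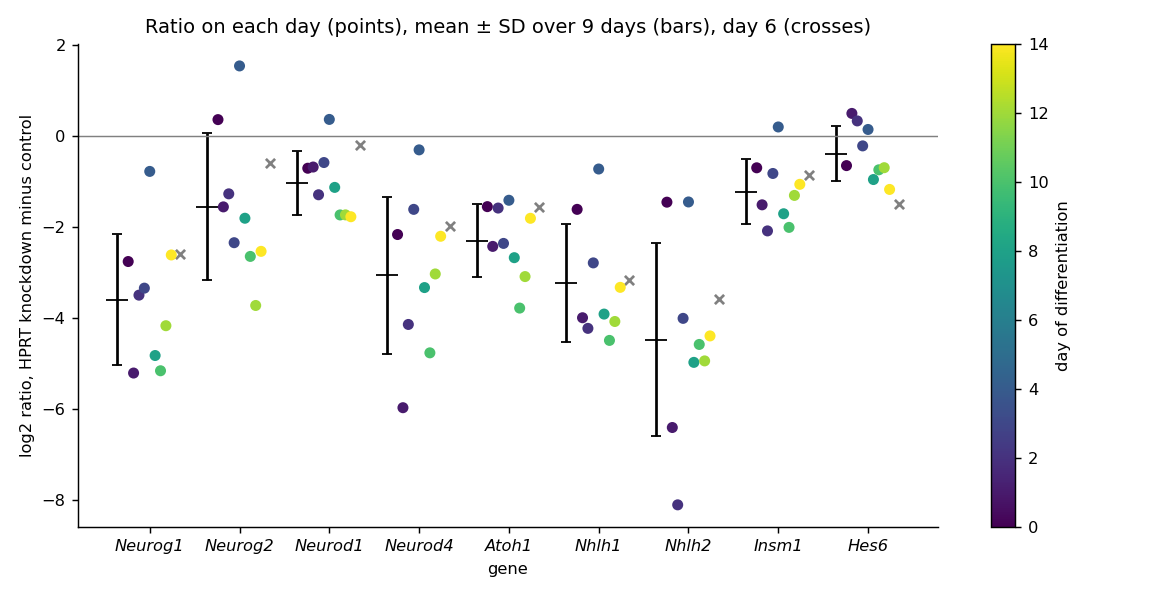
Log2 ratio (HPRT knockdown minus control, y axis) of each of the 9 genes (x axis) on each day, colored by day; black bars give the mean and SD over 9 days and grey crosses day 6. Nhlh2 reached -8.11 on day 2, and the points nearest to or above 0 belong mostly to day 4.

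Nhlh2, a helix-loop-helix factor of neurons that have just left the cell cycle, showed the greatest difference. Its control libraries held between 432 (day 1) and 2149 normalized reads (day 8), with a median of 738. The knockdown libraries held between 2.49 (day 2) and 361 (day 0), with a median of 42.0. All 10 knockdown libraries lay below all 10 control libraries, which was so for 0.691% of all genes tested and, among the members, for Nhlh2 only. The mean ratio was -4.48 ± 2.12 (SD, n = 9 days; limma adjusted p = 0.000402), and it was lower on 9 of 9 days. On day 2 the knockdown library held 2 reads of Nhlh2 and the control library 553, a fold of knockdown over control with a counting interval of 0.000434 to 0.0130 (exact Clopper-Pearson, 95%, from the split of the reads; such intervals cover counting error only).

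Nhlh1, its close relative, followed the same course. The control libraries ranged from 97.3 (day 1) to 643 normalized reads (day 8), with a median of 229, and the knockdown libraries from 6.19 (day 1) to 145 (day 0), with a median of 23.5. Only the knockdown libraries of days 0 and 4 reached the lowest control library. The mean ratio was -3.24 ± 1.297 (n = 9 days; limma adjusted p = 0.000184), lower on 9 of 9 days.

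Neurog1, a proneural factor that initiates neurogenesis, had between 36.0 (day 1) and 484 normalized reads (day 8) in the control, with a median of 86.4. In the knockdown the median was 10.9 and the highest value 43.5, on day 4, the one knockdown library above the lowest control. On day 1 the knockdown library was at the floor, with at most 0.83 reads, against 38.8 reads in the control. The mean ratio was -3.60 ± 1.44 (n = 9 days; limma adjusted p = 0.000183), lower on 9 of 9 days.

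Neurod4, which acts after the proneural factors in early neurons, ranged from 50.4 (day 14) to 334 normalized reads (day 8) in the control, with a median of 165. The knockdown libraries ranged from 1.03 on day 1, where the gene had a single read, to 171 on day 4, with a median of 22.4. Its mean ratio was -3.06 ± 1.73 (n = 9 days; limma adjusted p = 0.000990), lower on 9 of 9 days, though on day 4 the ratio of -0.31 was within counting error. These 4 genes were ranked between 19 and 92 from the lowest mean ratio among the 13608 genes.

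Neurog2, a proneural factor of the forebrain and of midbrain dopaminergic neurons, was higher in the knockdown on 2 days. Its control libraries ranged from 59.3 (day 1) to 275 normalized reads (day 8), with a median of 119, and its knockdown libraries from 13.2 (day 12) to 393 (day 4), with a median of 37.0. On day 0 its ratio was 0.36 and on day 4 it was 1.54, a fold of knockdown over control between 2.36 and 3.58 by counting error, and it was lower on the other 7 days tested. The mean ratio of -1.56 ± 1.62 (n = 9 days) passed by limma (adjusted p = 0.0215). It did not pass the exact sign-flip test with adjustment over all genes (adjusted p = 0.060), nor without day 3 (limma adjusted p = 0.0504).

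Neurod1, a differentiation factor shared by neurons and endocrine cells, ranged from 56.4 to 126 normalized reads in the control, with a median of 82.5, and from 23.9 to 105 in the knockdown, with a median of 44.0. Its mean ratio was -1.03 ± 0.71 (n = 9 days; limma adjusted p = 0.00310), lower on 8 of 9 days. Reads of Neurod1 could include those of other genes: 201 bases of its exons lie in exons of a transcript of Cerkl not annotated as coding, on the same strand, and 154 bases in exons of the non-coding RNA Gm17325 on the other strand, and the library kit did not mark the strand.

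Insm1 ranged from 192 (day 14) to 799 normalized reads (day 8) in the control, with a median of 426, and from 91.3 (day 14) to 570 (day 4) in the knockdown, with a median of 184. The mean ratio was -1.22 ± 0.72 (n = 9 days; limma adjusted p = 0.00139), lower on 8 of 9 days and 0.20 on day 4.

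Hes6 was the exception. Its control libraries ranged from 668 (day 1) to 1551 normalized reads (day 6), with a median of 915, and its knockdown libraries from 408 (day 14) to 1127 (day 2), with a median of 655. The ratio was above 0 on days 1, 2 and 4 and below 0 on the other 6 days tested, with a mean of -0.39 ± 0.60 (n = 9 days; limma adjusted p = 0.103). Without day 1 the mean was -0.50 and the limma adjusted p 0.0415.

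Atoh1, the proneural factor of hindbrain and dorsal neural tube, was barely present. The control libraries ranged from 3.03 to 15.0 normalized reads, and the knockdown libraries reached 4.35 on day 0, held 1 read on each of days 1, 3 and 10 and were at the floor on the other 6 days. The ratio was lower on 9 of 9 days, at -2.30 ± 0.80 (n = 9 days), and was called when the filter on level was dropped (limma adjusted p = 0.000261, where 20.8% of 19041 genes were called lower and 40.5% in either direction). On 6 of the 10 days its counting interval included no difference.

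Tested singly, 8 of the 9 members had p under 0.05 by the exact sign-flip permutation test over 9 days (two-sided, not adjusted). The value was 0.00390625 for Neurog1, Neurod4, Atoh1, Nhlh1 and Nhlh2, 0.0078125 for Neurod1 and Insm1, 0.03125 for Neurog2 and 0.09375 for Hes6. Of all genes past the filter, 56.3% had such a p, 28.2% with a lower mean in the knockdown. Neurog2 passed only without day 0, 2 or 4 when 1 day was left out, with p of 0.0546875 or 0.0625 without any other day, and Hes6 passed (exact p = 0.046875) without day 1 or 2 and with day 6 kept. The ratio was below 0 on all 9 days for 5 of the 9 members and for 15.2% of all genes past the filter. Over all 10 days and 9 genes, the counting interval of the fold lay below 1 in 75 of 90 comparisons and above 1 in 5, which were Neurog2 on days 0 and 4, Insm1 on day 4 and Hes6 on days 1 and 2.

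**Figure D2:**
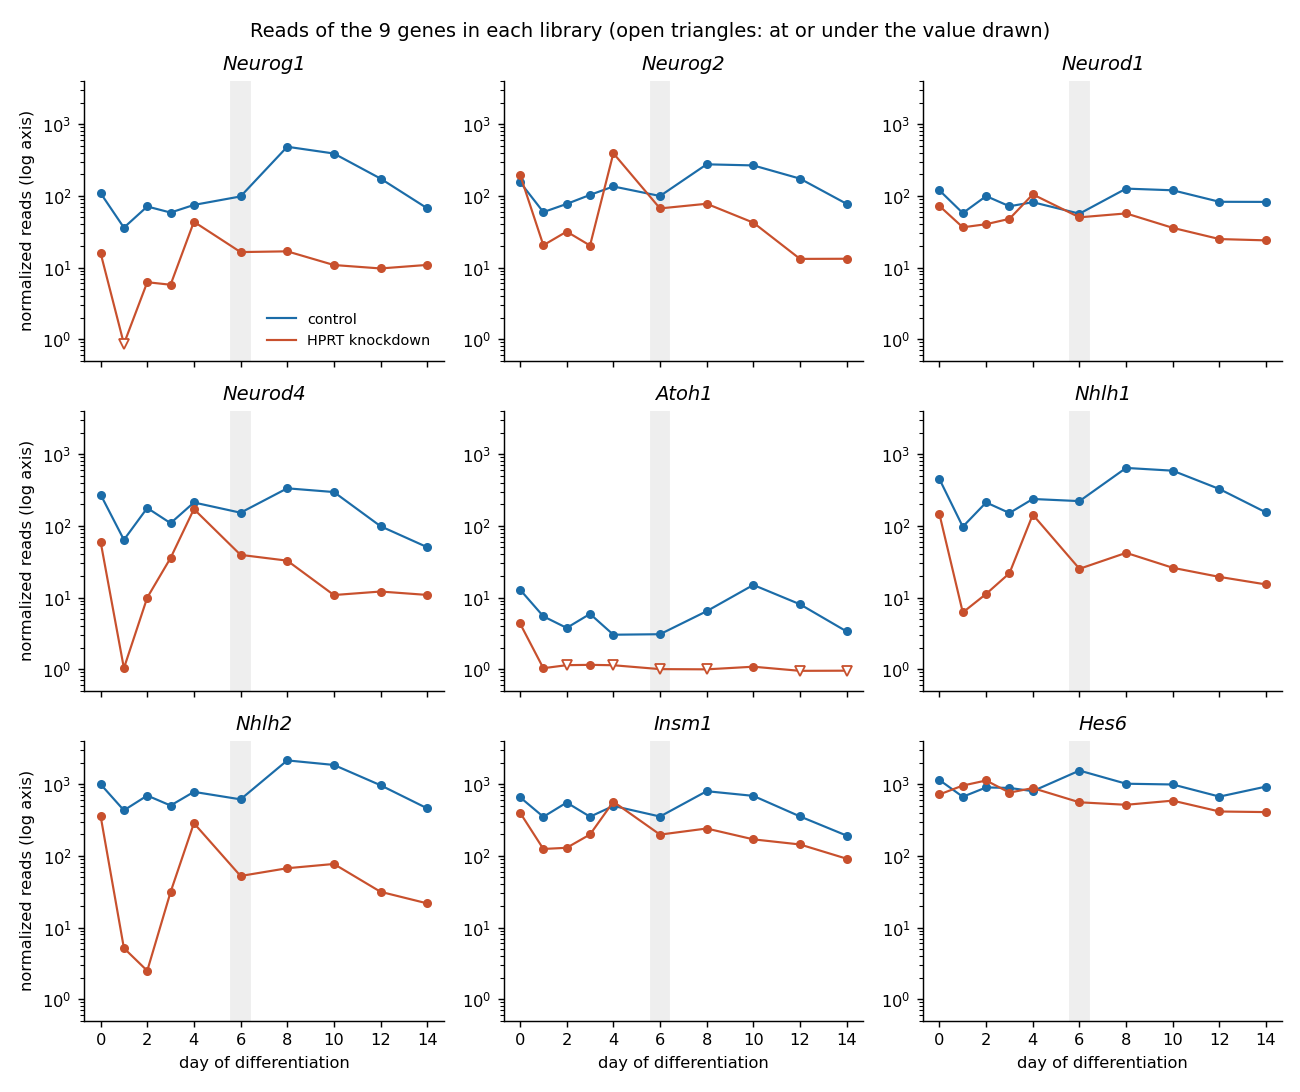
Normalized reads (y axis, log scale) of each gene by day of differentiation (x axis) in the control (blue) and HPRT knockdown (orange) libraries, 1 library per point; open triangles are libraries at the floor, drawn at their upper limit, and the grey band marks day 6. The control lines of all genes but Hes6 and Atoh1 peak on day 8, and the knockdown lines peak on day 0 or 4 for all genes but Hes6.

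The second comparison was over time within each line. In the control, most of the factors were lower on day 1 than on day 0, higher on day 8 than on day 6 and lower again on day 14. From day 0 to day 1, 7 of the 9 members were at least 2-fold lower, as were 3.42% of all genes tested. From day 6 to day 8, 8 of the 9 were at least 2-fold higher, all but Hes6, as were 5.51% of all genes. Among the 8 was Atoh1, which went from 3 reads to 6. Neurog1 stepped up 5.02-fold, Nhlh2 3.55-fold, Nhlh1 2.95-fold and Neurog2 2.82-fold, whereas the log2 step of Hes6 was -0.59. This step starts from the day 6 library, which the study had set aside. From day 4 to day 8, 5 of the 9 were at least 2-fold higher (Neurog1, Neurog2, Atoh1, Nhlh1 and Nhlh2), as were 6.79% of all genes, and Neurod1, Neurod4 and Insm1 were 1.55-fold, 1.58-fold and 1.61-fold higher. From day 12 to day 14, 5 of the 9 were at least 2-fold lower, as were 3.15% of all genes. Over all 9 steps, 26 of 81 values passed 2-fold, 11 up and 15 down, against 6.26% of the values of all genes (3.57% up and 2.69% down). At 1.5-fold the count was 46, against 16%. All of these steps compare single libraries, without a test. They include the steps of Atoh1, which stood below the filter on level and had 3 to 17 reads in the control libraries. The shares of all genes are of those past that filter. The step from day 3 to day 4 rests on deposited values that were at odds with the rest. The 1 member past 2-fold there was Atoh1, with a log2 step of -1.15. Worked back from the other pairs of libraries, it had 5.91 normalized reads on day 3 and 3.03 on day 4, less than 2-fold apart.

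In the knockdown the course was another one. From day 0 to day 1, 7 of the 9 members were at least 2-fold lower, as were 10.1% of all genes tested. Nhlh2 stepped down 69.3-fold, from 499 reads to 5, Nhlh1 23.2-fold, from 200 reads to 6, and Neurog2 9.58-fold, from 273 reads to 19.8. Neurod4 went from 83.2 reads to 1, Neurog1 from 22 reads to the floor and Atoh1 from 6 reads to 1. Hes6 went the other way, 1.34-fold higher.

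From day 3 to day 4 the knockdown levels came back, with 7 of the 9 members at least 2-fold higher, all but Atoh1 and Hes6, as were 4.5% of all genes. Neurog2 stepped up 19.4-fold, Nhlh2 9.13-fold, Neurog1 7.56-fold, Nhlh1 6.56-fold, Neurod4 4.81-fold, Insm1 2.87-fold and Neurod1 2.19-fold. The same 7 genes were at least 2-fold lower again from day 4 to day 6, as were 5.24% of all genes. From day 4 to day 8, without the day 6 library, 6 of them were, all but Neurod1, as were 2.1% of all genes. Between days 6 and 8, 0 of the 9 moved by 2-fold in the knockdown, and 5.99% of all genes were higher and 4.85% lower by that much. This step, too, starts from the day 6 library. Over all 9 steps, 29 of 81 values passed 2-fold in the knockdown, 11 up and 18 down, against 10% of the values of all genes (4.88% up and 5.13% down).

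**Figure D3:**
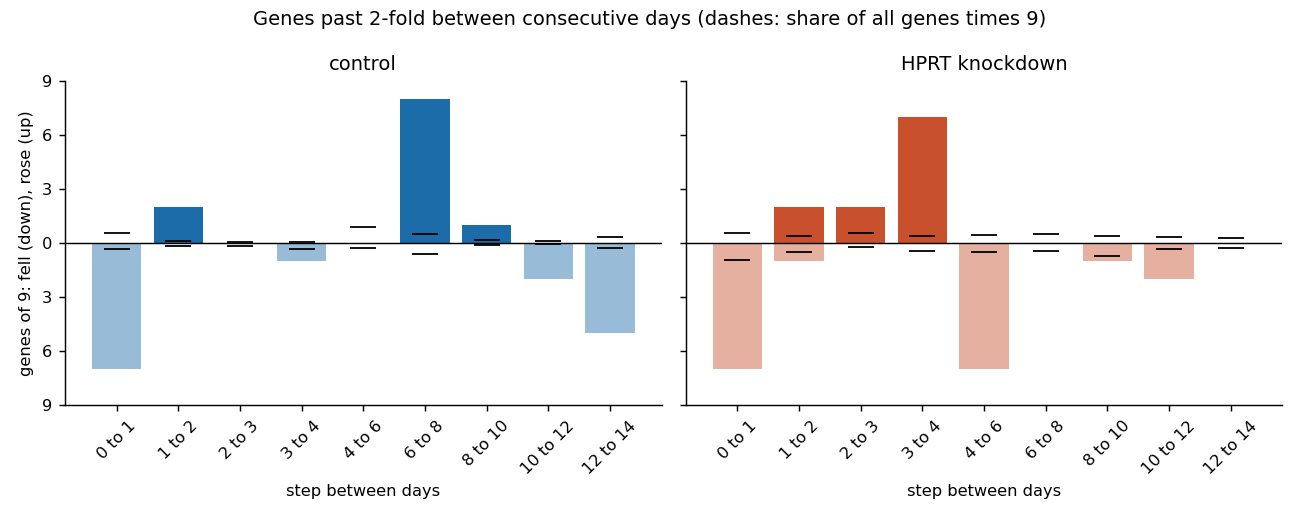
Number of the 9 genes at least 2-fold higher (upward bars) or lower (downward, pale bars) at each step between consecutive days (x axis), in the control (left) and the HPRT knockdown (right); black dashes give the share of all genes tested, scaled to 9. The tallest upward bar is at days 6 to 8 in the control (8 genes) and at days 3 to 4 in the knockdown (7 genes).

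Day by day, the lines were nearest on day 4, where the median ratio of the 9 members was -0.31; on the other 9 days it lay between -1.46 (day 0) and -3.78 (day 10). At least 2-fold lower in the knockdown were 5 of the 9 members at day 0 (6.62% of all genes), 7 at day 1 (12.9%), 8 at day 2 (8.68%) and 6 at day 3 (6.97%). At day 4 only 2 were, Nhlh2 and Atoh1 (6.01%), and Neurog2, Neurod1, Insm1 and Hes6 had ratios between 0.14 and 1.54. The count was 6 at day 6 (7.95%), 8 at day 8 (5.69%), day 10 (11.4%) and day 12 (11.5%), and 9 at day 14 (10.7%). The day 6 ratios, left out of the tests, were -3.58 for Nhlh2, -3.16 for Nhlh1, -2.61 for Neurog1 and -1.98 for Neurod4, and between -1.55 (Atoh1) and -0.20 (Neurod1) for the other 5 genes. In all, 61 of the 81 values of the 9 tested days were at least 2-fold lower and 1 was at least 2-fold higher, against 8.94% and 9.53% of the values of all genes past the filter on level. The counts of members include Atoh1, which stood below that filter. It was at least 2-fold lower on all 10 days, though its counting interval included no difference on 6 of them.

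A straight line over days described few of these courses. For the slope of the ratio on day, 0 of the 8 members tested passed (limma, Benjamini-Hochberg), against 14% of all genes tested (7.43% up and 6.61% down); at an unadjusted p under 0.05 were Neurog2 (-0.20 per day), Neurod1 (-0.095 per day) and Hes6 (-0.086 per day). In the control 0 of the 8 had a slope that passed, and none had an unadjusted p under 0.05, with 43.6% of all genes called (19.7% up and 23.9% down). In the knockdown Hes6 fell, by 0.093 per day on the log2 scale (limma adjusted p = 0.0187), where 5.53% of all genes fell, 7.6% rose and 13.1% did either; the call was lost without day 12 (limma adjusted p = 0.0654) and without day 14 (limma adjusted p = 0.0927). The slope of Hes6 in the control was -0.0043 per day, and the test of the difference between the lines gave a limma adjusted p of 0.0694.

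Within each line the genes other than Hes6 and Atoh1 moved together. Over the 9 libraries of a line without day 6, Pearson's r between their log2 levels had a median of 0.84 over 21 pairs in the control (0.63 to 0.97) and 0.81 in the knockdown (0.50 to 0.94). For the 7 pairs with Hes6 the median was 0.48 in the control and -0.031 in the knockdown. Over all 36 pairs of the 9 genes the median was 0.74 in the control and 0.64 in the knockdown. These pairs share libraries, and pairs of other genes were not examined, so r is a description. Over the 18 libraries of both lines, the genes outside the list with levels most like the mean profile of the 8 members were Uncx (r = 0.97), a homeobox factor, Dbx1 (r = 0.96), a homeobox factor of ventral neural progenitors, Klhl35 (r = 0.95), Cblb (r = 0.95), a ubiquitin ligase, and Igfbpl1 (r = 0.95). Their mean ratios were -3.86, -3.24, -3.57, -1.03 and -1.53.

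Of 7 neuron markers tested, 5 were called lower and none higher in the knockdown, with a median mean ratio of -1.88. Of all genes tested, 26.3% were called lower and 26.2% higher. The summed level of the 6 markers whose reads could be worked out ran from 8283 to 25121 normalized reads in the control and from 2214 to 10352 in the knockdown. In the knockdown it went from 10352 at day 0 through 3957, 2214 and 3322 at days 1 to 3 to 8569 at day 4 and 3739 at day 6, so that it too was low between days 1 and 3 and high at days 0 and 4. On day 0 the median ratio was -1.08 for the 8 factors and 0.18 for the 7 markers. On day 1 it was -2.78 for the factors and -0.69 for the markers, and on day 12 it was -3.38 and -2.95. The factors stood above the markers on day 4 (-0.081 and -0.51) and at nearly the same value on day 14 (-2.37 and -2.41).

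**Figure D4:**
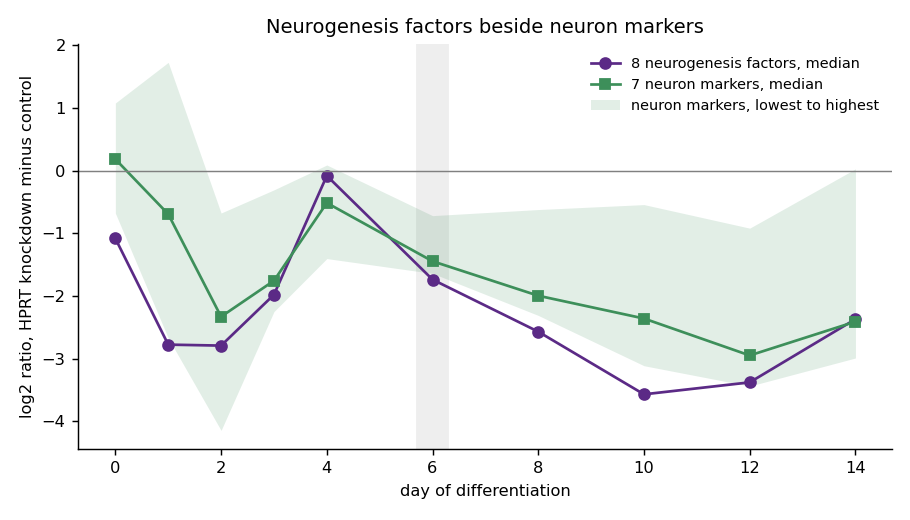
Median log2 ratio (HPRT knockdown minus control, y axis) by day (x axis) of the 8 neurogenesis factors past the filter (circles) and of 7 neuron markers (squares), with the range of the markers shaded and day 6 in grey. The factors stood at -2.78 and the markers at -0.69 on day 1.

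Of 7 oligodendrocyte markers, 3 were called higher, where 26.2% of all genes tested were. Their summed level (4 genes) was 1935 to 5943 normalized reads in the control and 5390 to 27268 in the knockdown. Of 6 astrocyte and radial glia markers, 5 were called higher, with sums (6 genes) of 4844 to 11564 and 5599 to 17539. The knockdown sum of 5599 was that of day 6, where the control held 7888. All 6 pluripotent stem cell markers were called lower, as were 26.3% of all genes tested. Their sums (4 genes) were 2314 to 7919 in the control and 289 to 6486 in the knockdown. The sum of 6486 was that of day 6, where the control held 2444, and the next highest knockdown sum was 3014 on day 8. None of the markers of these 4 lists was listed at 0 in all tables, and Map2 was not analysed here. The part of these cell types in the levels of the factors was not tested.

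The partners and opponents of the factors were compared in the same way, each list written from general knowledge. The shares of all genes tested to set beside them were 26.2% called higher, 26.3% lower and 52.5% in either direction. Among 11 other proneural and neural bHLH genes tested, 5 were called higher and 6 lower, with a median mean ratio of -1.10. Olig2 (3.02 ± 1.44, limma adjusted p = 0.000426) and Olig1 (2.51 ± 1.01), bHLH factors of the oligodendrocyte lineage, were highest, and Olig3 (-3.40 ± 2.40) and Tcf15 (-3.24 ± 2.09), a mesodermal bHLH factor, lowest. On day 6 Olig3 and Tcf15 stood at 0.96 and 0.067.

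Of the E proteins, the partners with which proneural factors bind DNA, all 3 were called: Tcf4 (0.60 ± 0.29) and Tcf12 (0.28 ± 0.25) higher and Tcf3 (-0.49 ± 0.22) lower. Of the 4 Id genes, whose products sequester E proteins, Id3 (0.58 ± 0.34) and Id1 (0.52 ± 0.32) were called higher and none lower. This was 50% in all, close to the share of all genes, with a median of 0.46. Among 5 Hes and Hey repressors other than Hes6, 2 were called in each direction. Hey1 (1.22 ± 0.47) and Hey2 (1.14 ± 1.22) were higher, and Heyl (-1.05 ± 1.16) and Hes5 (-0.99 ± 1.025), a Notch target of neural progenitors, were lower.

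Of 21 Notch pathway genes, 4 were called higher and 7 lower, 52.4% in all and close to the share of all genes, with a median of 0.072. The receptor Notch1 (0.89 ± 0.34) and the glycosyltransferase Lfng (0.85 ± 0.83) were higher, and the ligand Jag2 (-1.13 ± 0.54) and Mfng (-1.04 ± 0.87) lower. Of 13 co-factors and repressors, 1 was called higher and 9 lower, with a median of -0.61. Scrt2 (-4.12 ± 1.71) and Scrt1 (-2.54 ± 1.03), zinc finger repressors of new neurons, were lowest, Tle2 (1.44 ± 0.71), a Groucho co-repressor, was the one called higher, and the least negative called was the demethylase Kdm1a (-0.46 ± 0.19).

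**Figure D5:**
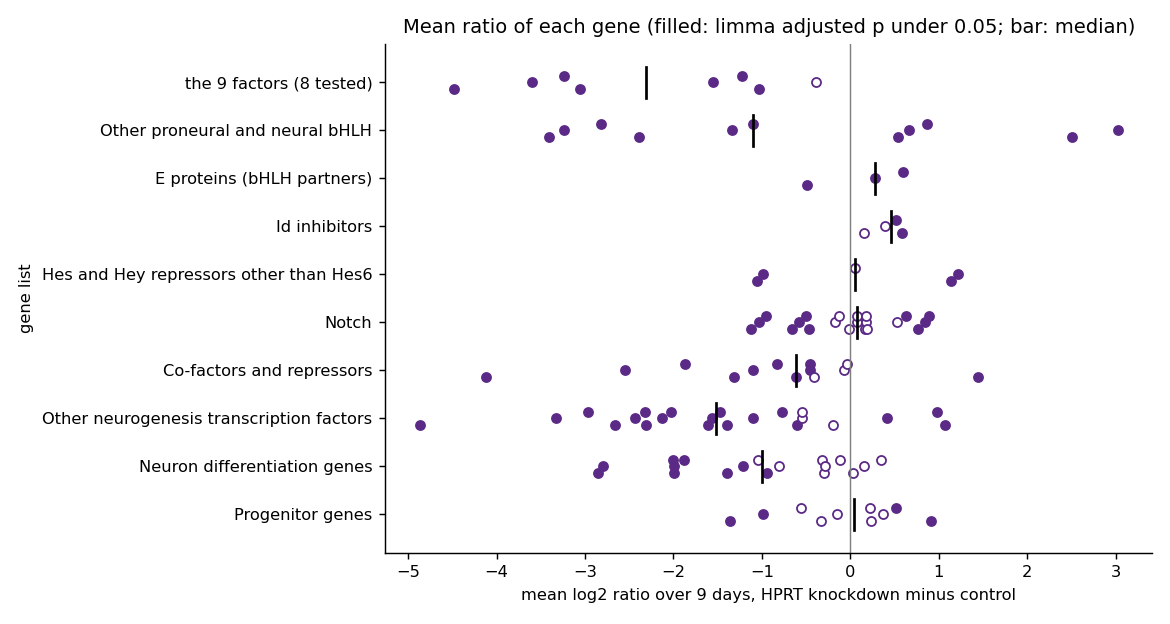
Mean log2 ratio over 9 days (HPRT knockdown minus control, x axis) of each tested gene in the member list and in 9 related lists (y axis); filled points passed limma at an adjusted p under 0.05, open points did not, and black bars are list medians. The medians lie at -2.31 for the 8 members, -1.52 for other neurogenesis transcription factors and 0.072 for Notch.

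Other neurogenesis transcription factors, many of them acting after the proneural genes, had 3 of 22 called higher, 16 lower and a median of -1.52. Tlx3 (-4.87 ± 2.17) and Lhx1 (-3.33 ± 1.36), homeobox factors of particular neuron types, were lowest, and Barhl2 (1.07 ± 0.70) and Prox1 (0.98 ± 0.52) highest; Tlx3 stood at -0.58 on day 6. Of 18 neuron differentiation genes, 9 were called lower and none higher. This was 50% in all, close to the 52.5% of all genes called in either direction, of which 26.3% were lower. The median was -0.99, and Nefl (-2.85 ± 1.301) and Ina (-2.79 ± 1.37), which encode neurofilament subunits, were lowest. The called genes nearest to 0 in that list were Syt1 (-0.95 ± 0.995) and Nefm (-1.21 ± 1.44). Of 10 progenitor genes 2 were called in each direction, 40% in all, with a median of 0.037. Vim (0.91 ± 0.29) and Sox2 (0.52 ± 0.57) were higher, and Pax6 (-1.36 ± 0.74) and Hes5 lower.

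On the NCBIM37 (mm9) assembly none of the 9 genes overlaps another of the 9, and only Neurod1 overlaps other annotated genes, Cerkl and Gm17325. Nhlh2 (Gene ID 18072) is at chromosome 3, 101814068 to 101819415, plus strand, in 3 exonic blocks, and Nhlh1 (18071) at chromosome 1, 173982423 to 173987704, minus strand, in 2. Neurog1 (18014) is at chromosome 13, 56351866 to 56353524, minus strand, in 1 block, Neurog2 (11924) at chromosome 3, 127336054 to 127338549, plus strand, in 2, and Neurod4 (11923) at chromosome 10, 129705209 to 129717296, minus strand, in 2. Neurod1 (18012) is at chromosome 2, 79292678 to 79296908, minus strand, Insm1 (53626) at chromosome 2, 146047657 to 146050752, plus strand, Hes6 (55927) at chromosome 1, 93308060 to 93310615, minus strand, and Atoh1 (11921) at chromosome 6, 64679140 to 64681227, plus strand. No stretch of 50 bases, the read length, was shared with the coding transcripts of other genes for 7 of the 9, Neurod1 among them, whose overlaps are with transcripts of other kinds; Nhlh2 shared 5 of its 3294 stretches and Insm1 23 of 3047.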

How the data were processed

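Libraries were made from total RNA with the TruSeq v2 kit, which does not mark strand, and sequenced for 50 cycles. Per the labels and the study's methods, the authors aligned reads to NCBI37/mm9 with CASAVA 1.8.2, counted them per gene in Avadis NGS and normalized with DESeq. The authors deposited log2 values in 28 tables of 2 libraries each, 10 pairing the lines on a day and 9 per line pairing consecutive days, each value with the mean of its 2 libraries subtracted. The groups came from the labels; sequencing lanes are not given in the sources used here, and the depth of each library is known only through its relative size factor.

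Reads per gene were worked back from the deposited values, taking reads as whole multiples of 1/49. The reads of each of the 9 genes and Hprt matched 27 of 27 tables. A table holds only the difference between 2 libraries. A common factor on all reads of a gene leaves that difference unchanged, unless a library is at the floor. The match therefore did not test the scale of the reads, on which levels, levels per kb and counting intervals rest. The table of control days 3 and 4 was at odds with the rest and was left out when reads were worked back. On simulated tables all 20 libraries were recovered for 30 of 32 genes; for the other 2 all libraries were off by a common factor. For Atoh1, 6 of the knockdown libraries, and for Neurog1 1, are upper limits. Tested were the 13608 genes whose typical log2 normalized count was 4 or more. For this filter the level of a gene was inferred from the rounding of its deposited values. The finer rounding of each pair of libraries was taken, which goes with the lower library, and then the median over all pairs.

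Ratios were tested with limma 3.58.1 in R 4.3.3 (lmFit, eBayes, Benjamini-Hochberg, threshold 0.05), over 9 days without day 6: an intercept for the difference between lines, a slope on day for trends. Levels for trends were joined from consecutive-day tables that had been normalized separately. Days of a line are successive collections and not independent cultures, so p-values measure the spread over days. The ratio pairs the lines by day, the number they share in the labels; over all genes, the deviations from the line means correlated within a day with r between 0.14 and 0.42 on 8 days and -0.011 on day 0. The scripts were tested on simulated data. Alternatives were other filters on level, day 6 kept, each day left out, trend and robust options, median centring, levels fitted over all tables, an exact sign-flip test, unpaired lines, a slope on log2(day + 1) and 1.5-fold in place of 2-fold; levels without the table of control days 3 and 4, added after the data were seen, changed no member's count. The members and lists were chosen with earlier results of these data known. All members were named, with, from each list, the 2 called genes with the highest and the 2 with the lowest mean ratio and the 5 genes most like the members. Positions are from GENCODE vM1 on NCBIM37, and upstream sequences from RefSeq on GRCm38.p6.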

Additional observations from a re-analysis of the deposited data

How the results depend on the processing

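With 1 library per line and day and no replicate, the spread is that over days. Of the 8 members tested between the lines, 7 were called, and 6 to 8 when 1 day was left out; without a replicate block 7 were called, and 6 by the exact sign-flip test. Only 2 members, Insm1 and Hes6, passed the filter at a typical log2 count of 8, which follows the lower library of each pair. Among these, 1 was called between the lines and 1 for the slope of the ratio, where 0 of 8 had been. At that level 43 of 71 list genes were called. The slope on log2(day + 1) called 0 members in the knockdown in place of 1. The range over leaving out 1 day was 0 to 1 for members whose ratio changed over time, for a trend in the control and for a trend in the knockdown, 65 to 74 for called list genes and 7 to 9 for single members in the exact test. Between consecutive days in the control, 46 of 81 steps passed 1.5-fold and 26 passed 2-fold. In the control, 8 members were at least 2-fold higher from day 6 to day 8 and 5 from day 4 to day 8, an alternative added after the data were seen. Pseudocounts were not varied, since the values are log2.

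In all 147 values that the alternatives to the limma test over all genes gave for single members, the difference between the lines kept its direction; Neurog2 lost its call in 2 and Hes6 gained one in 1. In the exact test of single members, not adjusted, Neurog2 lost p under 0.05 without day 1, 3, 8, 10, 12 or 14, and Hes6 gained it without day 1 or 2 and with day 6 kept (9 members). Slopes near 0 changed sign without 1 day, none of them called. Over leaving out 1 day, the slope of the ratio ran from -0.072 to 0.057 for Neurod4 and from -0.11 to 0.091 for Nhlh2. In the control it ran from -0.089 to 0.033 for Neurod4, -0.014 to 0.024 for Neurod1 and -0.017 to 0.010 for Hes6. In the knockdown it ran from -0.17 to 0.025 for Neurod4, -0.028 to 0.12 for Neurog1, -0.13 to 0.025 for Nhlh1 and -0.077 to 0.15 for Nhlh2, which was at -0.048 on log2(day + 1). Calls for a single slope appeared for Neurod1 without day 4, Hes6 without day 0 and Neurog1 in the control without day 14; the cause was not tested.

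Over all genes, 1911 ratios changed over time, but 1066 with day 6 kept and 605 to 1657 without 1 day, lowest without day 12. Trends in the control were 5933, or 3929 on log2(day + 1), and in the knockdown 1786, or 127 on log2(day + 1) and 171 (without day 14) to 2959 (without day 0).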

Other observations

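The bHLH factors of muscle were read in the same libraries. Myog, which acts in differentiating muscle cells, was present in the control on some days and nearly absent on others, at 1104, 1966 and 1483 normalized reads on days 3, 6 and 14 but at 10.1 and 7.05 on days 4 and 10. Myod1 was at 234, 643 and 46.2 on the first set of days and at 4.04 on day 4, with at most 1 read on day 10. These genes and days were chosen after their values were seen. In the knockdown Myog was at 87.7 normalized reads on day 0 and at most 21.5 from day 1 on, and Myod1 was at 46.9 on day 0 and at most 10.3 from then on. The highest control library of both was that of day 6.

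The remaining marker lists had smaller levels or mixed calls, beside 26.3% of all genes tested called lower and 26.2% higher. Of 7 fibroblast and mesenchyme markers, 2 were called lower, with sums of 3647 to 49163 normalized reads in the control and 5520 to 22717 in the knockdown, highest on day 14 in both lines. Of 4 endoderm markers tested, 1 was called in each direction, with sums (5 genes) of 147 to 544 and 205 to 1985. Of 4 endothelial markers, 1 was called lower, with sums (3 genes) of 139 (day 6) to 669 and 45.1 to 398. The 3 muscle markers summed to between 9.69 and 2716 (day 6) in the control and between 2.30 and 143 in the knockdown, and the 1 tested was called lower. Of the 9 enteroendocrine and pancreatic markers, Pax4, Ins1 and Ins2 were listed at 0 in all tables, that is, with no difference between any 2 libraries compared, 1 of the 4 tested was called higher, and the sums over the 5 genes with reads worked out were 248 to 1606 and 269 to 2391. Neurog3, the endocrine relative of Neurog1, did not exceed 13.2 normalized reads in any library.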
